A study of Mus musculus with 22 samples.

Results

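The mouse brain array carried probes for long non-coding RNAs (lncRNAs) that were designed on genomic intervals of the mm9 build, and many of these intervals were probed on the forward strand (F) and on the reverse strand (R). Described here are the 304 intervals, of 3539 with an analysed lncRNA probe, in which a probe of each strand was well above background on every one of the 22 arrays. They were selected on measured signals, so their detection on both strands is a description and no result. Of all intervals, 1065 had a probe on each strand, 1377 were detected everywhere on 1 strand (481 of these with probes on each strand) and 1858 on neither. The rule had a sharp edge: the better probe of the missing strand was well above background on 21 arrays in 37 intervals, on 20 arrays in 21 and on 19 in 14, and on no array in 23.

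The samples were brain slabs from 3 male C57BL/6J mice, with 1 mouse cut in coronal, 1 in horizontal and 1 in sagittal planes. Their titles give postnatal day 7 and their age field gives 3 days. The coronal mouse gave 10 fractions, the horizontal mouse 6 and the sagittal mouse 6, and each fraction was hybridised once to a 1-colour array. Fractions therefore have no replicates, and the cutting plane cannot be told apart from the mouse. Each slab is labelled as 100 slices of 5 µm, or 500 µm, while the study's methods name a thicker fraction, and the last coronal, first sagittal and last sagittal fractions pooled neighbouring slabs. The labels do not say at which end of the brain fraction 1 lies. The hindbrain genes Hoxb5, Hoxa5 and Hoxb3 were highest in coronal fraction 1, and the olfactory bulb genes Eomes, Cdhr1 and Doc2g were highest in coronal fraction 10. Markers of neurons, astrocytes, oligodendrocytes, microglia and endothelium were detected on all 22 arrays.

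An lncRNA is a transcript that is processed much like a messenger RNA but carries no long reading frame. Some lie between genes, some overlap a coding gene, and some run antisense to another transcript, so that 1 stretch of DNA can give RNA from both strands. Divergent and antisense lncRNAs are common near genes for transcription factors in the developing brain. In bulk slabs a lower value can come from fewer cells that make the RNA or from less RNA per cell, and these cannot be told apart.

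Levels are log2 intensities minus the 75th percentile of the array, so a level of 0 equals that percentile. A library feature that touches several results comes first. On 7 arrays (coronal fractions 1 and 2, horizontal 1, 2 and 3, sagittal 1 and 3) the scanner software put the slope of its spike-in RNAs out of the accepted range. The signal of the spike-in a107 was 6.38 to 8.23 on the log2 scale on those arrays and 2.86 to 4.96 on the other 15. Correlations with a107 are given below beside the intervals they bear on most, and the part of this difference in the results was not tested beyond the settings given.

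The members were spread over the genome, with 25 on chromosome 5, 23 on chromosome 2, 21 on chromosome 14 and 21 on chromosome 4, down to 8 on chromosome 9. They were 5126 to 508115 bp long with a median of 18957.5 bp, against 16301 bp for intervals probed on each strand but detected everywhere on neither and 19101 bp for those detected on 1 strand. They held 3345 probes, of which 1307 (653 F and 654 R) were detected on all arrays. In 146 members the F strand, and in 148 the R strand, rested on a single such probe. Members were not all independent, since 7 pairs began at the same base and differed only in their end. For each strand the probe with the highest median level among those detected everywhere was used.

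The probes used for the strands of a member often had unequal signals. The mean level over the 22 fractions had a median of -1.12 for F probes (range -3.67 to 8.28) and of -0.89 for R probes (range -3.49 to 8.31). F minus R had a median of -0.18 over the 304 members and ran from -10.81 to 10.98. The F probe was the brighter in 145 members and the R probe in 159. The size of the difference had a median of 2.00 log2 units. Because probes bind with unequal strength, this needs a yardstick. The brightest probe of a strand and the next brightest differed by a median of 1.03 in 314 pairs, but neighbours in rank lie close by their choice. Over all pairs of detected probes in the 102 members with at least 2 on each strand, the median size was 1.33 on the same strand and 1.90 between strands, and it was the larger between strands in 56 of the 102. The difference exceeded 1 log2 unit in 211 members and 5 units in 54. It kept its sign on all 22 arrays in 184 members, F above R in 89 and R above F in 95, and changed sign between arrays in 120. Both strands lay above the 75th percentile in 48 members, both below it in 124, and 1 above and 1 below in 132.

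**Figure D1:**
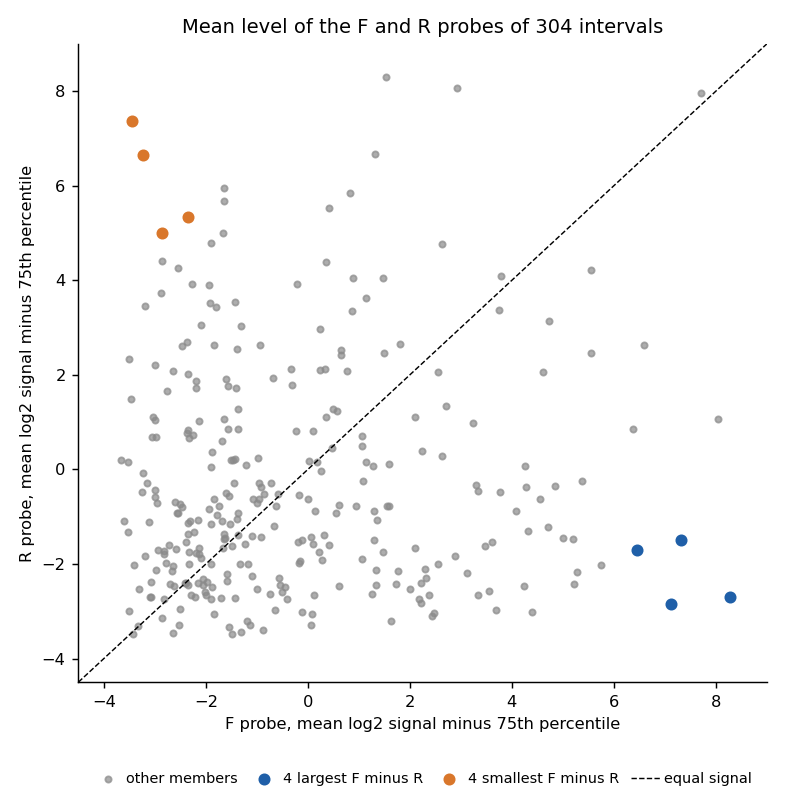
Each of the 304 points is 1 interval, with the mean log2 level of its F probe over 22 fractions on the x axis and that of its R probe on the y axis. Points on the dashed line have equal signal, and the coloured points, 4 on each side, are the intervals with F minus R between 8.16 and 10.98 (blue) and between -10.81 and -7.69 (orange).

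The widest gap with F above R was in chr14:78924115-78938125 (probes A_30_P01031448 and A_30_P01022757). Its F probe ran from 8.03 to 8.54 with a median of 8.30 in the coronal fractions, from 8.18 to 8.94 (median 8.39) in the horizontal and from 7.65 to 8.69 (median 7.98) in the sagittal. Its R probe ran from -2.89 to -2.16 (median -2.68), from -2.80 to -2.18 (median -2.34) and from -3.91 to -2.38 (median -3.20) in the same series. These probes did not overlap in any series, and F minus R averaged 10.98 ± 0.35 (SD over 22 fractions of 3 mice). The gap belonged to 1 probe, however, since the other detected F probe, A_30_P01028790, lay 11.37 below A_30_P01031448, or near the R probes. With the mean of all detected probes per strand the difference was 5.40.

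The gap in chrX:18744367-18853992 was similar. Its F probe A_30_P01020476 had medians of 7.05, 7.32 and 7.37 in the coronal, horizontal and sagittal series and its R probe A_30_P01025131 had medians of -3.21, -3.40 and -2.11. The F probe was at 5.06 in coronal fraction 2, where the other coronal fractions were at 6.85 or above. Each strand of this interval rested on 1 detected probe, and F minus R averaged 9.96. In chr6:83368261-83407280 F minus R averaged 8.80 and in chr15:85412264-85549139 it averaged 8.16. These averages were 3.62 and 3.82 when all detected probes of a strand were averaged.

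The widest gap with R above F was in chr13:73472571-73483846. Its R probe A_30_P01024724 had medians of 7.17, 7.30 and 7.64 in the coronal, horizontal and sagittal series, and its highest value was 8.88 in sagittal fraction 6. Its F probe A_30_P01021537 had medians of -3.74, -3.64 and -2.98. F minus R averaged -10.81, or -4.46 with the mean over its 1 F and 3 R probes detected everywhere. The second brightest of these R probes lay 8.37 below the one used. The next were chr2:168804720-168854970 at -9.88, chr16:29942664-29948289 at -7.87 and chr5:26323150-26357875 at -7.69. In chr2:168804720-168854970 the other detected R probe lay 9.66 below the one used, about at the level of the F probe, and the mean of all detected probes gave -5.05. The last pair of intervals had 1 detected probe on each strand. The probes used did not overlap between the strands in any series in these 4 intervals.

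Over the fractions, the strands of a member moved together only loosely. Pearson's r between its F and R probes over the 22 fractions had a median of 0.25 and ran from -0.87 to 0.98, with 98 members above 0.5, 17 above 0.85 and 87 below 0. These 22 points share 3 mice and the array effects above, so r is a description without a p. Other pairs of probes frame it. F and R probes of different members had a median r of 0.18 over 92112 pairs, with 2.36% above 0.85. The 314 pairs of the brightest and next brightest probe of a strand had a median r of 0.55, with 23.2% above 0.85. In the 102 members with at least 2 detected probes on each strand, the median was 0.28 between strands and 0.54 within a strand. Over all their pairs of detected probes it was 0.23 between strands and 0.51 within a strand, and it was the lower between strands in 74 of the 102.

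**Figure D2:**
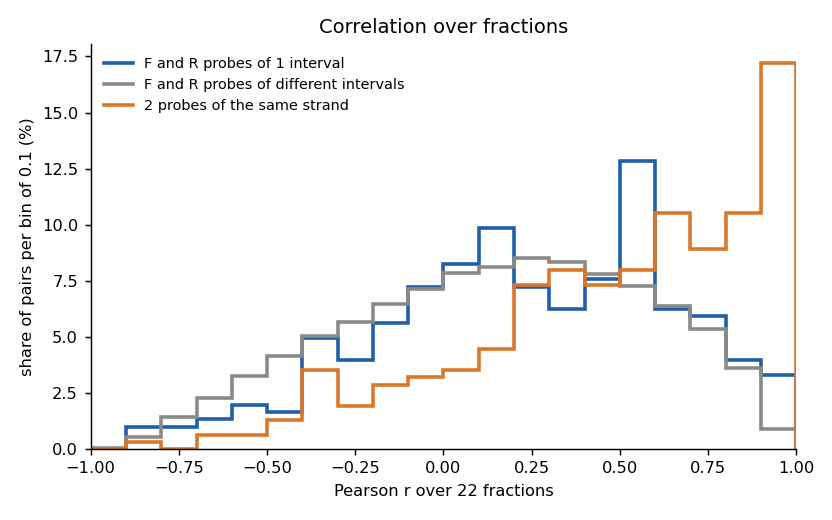
The x axis is Pearson's r over 22 fractions and the y axis is the share of pairs in each bin of 0.1, for the F and R probes of 1 interval (304 pairs, blue), F and R probes of different intervals (92112, grey) and the 2 brightest probes of the same strand (314, orange). The blue line (median 0.25) lies near the grey line (median 0.18), and the orange line (median 0.55) is shifted to the right.

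The correlation of the strands was higher where both were bright. With both strands above the 75th percentile the median r was 0.50 in 48 members, against 0.30 for F and R probes of different members in that class. With both below, it was 0.22 in 124 members, against 0.23 for different members. With 1 above and 1 below it was 0.18 in 132 members, against 0.16. Within a series the medians were 0.24 (coronal), 0.26 (horizontal) and 0.34 (sagittal). Over the 15 arrays with the spike-in slope in range the median was 0.37, and that of different members 0.26.

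The F or R probe of 27 members had an r above 0.85 in size with a107. Taken singly, 69 F probes had an r above 0.5 with a107 and 51 an r below -0.5, and for R probes the numbers were 82 and 41. In 23 members 1 strand had an r above 0.5 with a107 and the other an r below -0.5, while in 22 members both were above 0.5 and in 4 both were below -0.5. Whether these pairings differ from those of unrelated probes was not tested.

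Of the 4 members with the highest correlation, chr5:74487385-74497428 (r = 0.98) had the most probes, with 9 of 10 F probes and 4 of 10 R probes detected everywhere. Its F probe A_30_P01031385 ran from 3.16 to 5.29 (median 4.21) in the coronal fractions, from 4.20 to 6.89 (median 5.05) in the horizontal and from 3.51 to 7.12 (median 4.92) in the sagittal. Its R probe A_30_P01025874 ran from 1.82 to 3.66 (median 2.73), from 2.76 to 4.95 (median 3.59) and from 1.99 to 5.12 (median 3.23). Both strands were highest in sagittal fraction 6 and next in horizontal fraction 1, and both were lowest in coronal fraction 5. Among 13671 genes detected on all arrays, the gene most like the R probe was Rmrp, the RNA part of RNase MRP (r = 0.97), and those most like the F probe were Rprl2 and Rps7, a protein of the small ribosomal subunit (r = 0.96 each). The 2 brightest probes of a strand had an r of 0.99 for F and 0.99 for R, and a107 had an r of 0.19 and 0.24 with the probes used. Over all its detected probes the median r was lower, at 0.61 over 36 pairs between strands and 0.88 over 42 pairs within a strand.

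In chr5:23349978-23402028 (r = 0.98) the F probe A_30_P01022058 had medians of 0.04, 0.74 and 0.20 in the coronal, horizontal and sagittal fractions and the R probe A_30_P01027998 had medians of 4.11, 4.63 and 4.24. The strands stayed a nearly fixed distance apart, with F minus R at -4.02 ± 0.12 (SD over 22 fractions). The R probe was most like Bud31, a splicing factor (r = 0.99), and then Tomm7, a part of the mitochondrial import machinery (r = 0.98). The F probe was most like Uqcrh, a subunit of respiratory complex III (r = 0.96). The interval chr2:176784125-177183100 (r = 0.98) was most like Sec61g, a subunit of the protein channel of the endoplasmic reticulum (r = 0.97 with R), and Rpl22l1, a ribosomal protein paralogue (r = 0.94 with F). Its F minus R was -0.55 ± 0.13.

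The fourth, chr17:84470764-84486339 (r = 0.975), was different. Its F probe A_30_P01031613 ran from -3.96 to 0.05 in the coronal, -4.33 to 1.06 in the horizontal and -3.28 to -0.31 in the sagittal fractions. Its R probe A_30_P01029869 ran from -3.91 to 0.13, -3.79 to 0.05 and -3.22 to -0.77. Both strands were at -1.70 or above on the 7 arrays with the spike-in slope out of range and in coronal fraction 8, and lower elsewhere, and their r with a107 was 0.91 and 0.88. Over the other 15 arrays the strands still had an r of 0.96.

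**Figure D3:**
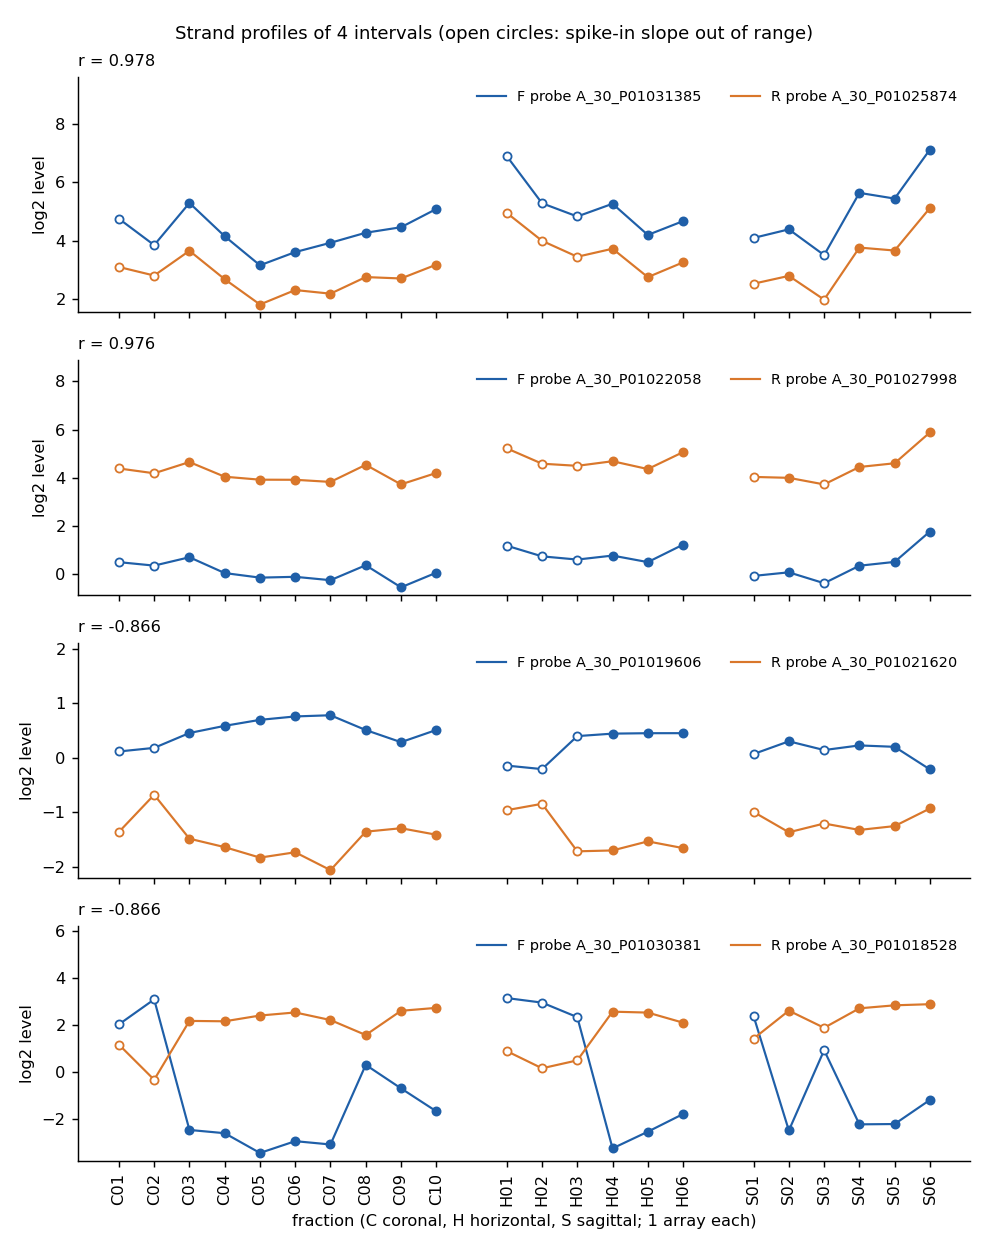
Log2 level (y axis) of the F probe (blue) and R probe (orange) in each of the 22 fractions (x axis), for chr5:74487385-74497428, chr5:23349978-23402028, chr1:95871175-95886625 and chr17:88225376-88238756 from top to bottom, with open circles for the 7 arrays whose spike-in slope was out of range. The strands run in parallel in the upper panels (r = 0.98) and in opposition in the lower panels (r = -0.87), and in the lowest panel the F probe is above 0.9 on all 7 open-circle arrays.

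Of the 4 members with the lowest correlation, chr1:95871175-95886625 held its opposition on the arrays in range. Its F probe A_30_P01019606 ran from 0.11 to 0.78 (median 0.51) in the coronal, from -0.21 to 0.45 (median 0.42) in the horizontal and from -0.21 to 0.30 (median 0.17) in the sagittal fractions. Its R probe A_30_P01021620 ran from -2.06 to -0.68 (median -1.45), from -1.72 to -0.85 (median -1.60) and from -1.37 to -0.93 (median -1.23). In coronal fraction 7 the F probe was at its highest and the R probe at its lowest. The strands had an r of -0.87 over 22 fractions and -0.90 over the 15 arrays in range. The probe pairs of the same strand had r of 0.90 (F) and 0.77 (R). The F probe was most like Prkdc, the catalytic subunit of the DNA-dependent protein kinase (r = 0.95), and the R probe most like Dleu2, itself an lncRNA gene (r = 0.92). With a107 the r was -0.70 for F and 0.66 for R.

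The other three moved with the spike-in. In chr17:88225376-88238756 the F probe A_30_P01030381 ran from -3.42 to 3.09 and the R probe A_30_P01018528 from -0.32 to 2.73 in the coronal fractions. F was highest on the arrays out of range, where R was mostly low, with an r of 0.95 and -0.78 with a107. The r between the strands was -0.87 over all arrays and -0.27 over the 15 in range, and the pair of R probes disagreed with each other (r = -0.69). In chr16:23992037-24001037 the r went from -0.82 to -0.10 over the 15 arrays, and in chr6:83368261-83407280 from -0.77 to -0.36. Their r with a107 was 0.96 for F and -0.80 for R in the former, and -0.73 for F and 0.82 for R in the latter.

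The 4 members with the widest range over the fractions showed the same feature. They were chr10:116814196-116920696, chr3:36280098-36347798, chr16:23992037-24001037 and chr4:56013597-56020622. In the first, the R probe A_30_P01020420 ran from -3.68 to 3.72 in the coronal, from -3.63 to 3.88 in the horizontal and from -2.52 to 3.10 in the sagittal fractions. Its r with a107 was 0.96, and the r of the moving strand with a107 in the other three was 0.93, 0.96 and 0.94. The F probe of the first ran only from -2.22 to -0.19 in the coronal fractions.

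Change along a cutting series was tested in a limma fit over the 39621 probes that every series detected in 1 fraction or more, with Benjamini-Hochberg adjustment. The coronal and horizontal tests were joint tests of a linear and a quadratic term, and the sagittal test was of the linear term alone, so the shares of the 3 series are not alike. Rising and falling refer to the sign of the linear term. The error of the fit comes from how far single arrays lie off a smooth curve and holds no spread between animals. Along the coronal series 225 of the 1307 member probes passed an adjusted p of 0.05, against 19.8% of all probes tested and 24.1% of probes detected on all arrays. The members' share was 17.2%, below both, and their median linear change was 0.08, as it was for probes detected on all arrays. Of those called, 159 rose and 66 fell with fraction number, against 4313 and 1903 of the probes detected on all arrays. This split rested on coronal fraction 10, without which 104 rose and 125 fell. The coronal arrays lay on 3 slides, and with slide as a block the number called was 30. After median centring of the arrays it was 120. Without coronal fraction 1, 5, 6 or 7 the number was 347, 136, 128 or 149.

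The F probe used passed along the coronal series in 17.4% of members and the R probe used in 16.4%, against 24.1% of probes detected on all arrays. Whether strands passed together more often than unrelated probes would was not tested. Both strands of a member passed in 9 members (2.96%), F alone in 44 (14.5%) and R alone in 41 (13.5%), and neither in 210 (69.1%). Among the 9, both strands rose in 4 and both fell in 1. In chr5:52461266-52541416 the linear change over the whole series was 1.40 for F and 1.95 for R, although the other detected F probe, equally bright, had an r of -0.52 with the one used. In chr6:135294099-135300310 the change was -0.94 for F and -1.01 for R.

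Along the horizontal series 82 member probes passed (6.27%), against 6.57% of all probes tested and 7.93% of probes detected on all arrays, a share near the background. Of the member probes called, 29 rose and 53 fell, against 1385 and 661 of the probes detected on all arrays. The members' split depended on the scaling, with 21 rising and 7 falling when each array was centred on its median, and 61 and 41 after quantile normalization. The median linear change was -0.31 over the member probes, -0.35 over probes of intervals detected on 1 strand and 0.14 over all probes detected on all arrays. The number called was 0 without horizontal fraction 1 (363 member probes at an unadjusted p under 0.05 in limma) and 1 with a107 as a covariate. Without any one of the other horizontal fractions it was 10 to 39, of the sagittal fractions 35 to 52 and of coronal fractions 5 to 7 from 42 to 51, and without coronal fraction 2 or 10 it was 211 or 146. No member had both strands called. F alone passed in 9 (2.96%) and R alone in 20 (6.58%), against 7.93% of probes detected on all arrays.

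Along the sagittal series 226 member probes passed the linear term (17.3%), against 10.2% of all probes tested and 14.2% of probes detected on all arrays. Of these, 188 rose and 38 fell, and the median linear change was 0.32, against 0.13 over probes detected on all arrays. Probes of intervals detected on 1 strand were close to the members, with 16.6% called, 334 rising and 39 falling, and a median change of 0.34. The number for the members was 114 after median centring of the arrays, 133 after quantile normalization and 131 with a107 as a covariate. It also rested on 1 fraction, since leaving out sagittal fraction 6 gave 0 calls in limma and 52 member probes at an unadjusted p under 0.05. The median level of the members' F probes was -0.39 on that array and -1.01 to -0.86 on the other sagittal arrays. The F probe used passed in 15.1% of members and the R probe used in 18.75%. Both strands passed in 19 members (6.25%), with 18 rising on both and 1 (chr14:65431652-65437902) falling on both. The parallel members above were among them: the change was 3.16 for F and 2.69 for R in chr5:74487385-74497428, 1.80 and 1.87 in chr5:23349978-23402028, and 1.90 on each strand in chr2:176784125-177183100.

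Annotated lncRNA genes give a frame for these calls. Of 15 such genes listed, 9 were matched by symbol. This frame is not separate from the members. Pantr1 had an r of 0.998 with the R probe of chr1:42689799-42749799, and Malat1 had 0.99 with that of chr19:5771425-5848475. Along the coronal series Dlx6os1, an antisense RNA of a homeobox gene of inhibitory neurons rose (adjusted p 6.81e-05 in limma), with a size not given because it was not above background on 3 arrays, and Pantr1, an RNA next to the neural factor Pou3f3, rose by 1.71 (adjusted p 0.0026 in limma). Pantr1 also passed along the horizontal (adjusted p 0.0049 in limma) and sagittal series (0.0064 in limma). The others were Malat1, Neat1, Meg3, Mirg, Six3os1, Peg13 and Kcnq1ot1, with adjusted p values from 0.0525 to 0.446 along the coronal series in limma. Along the horizontal series Neat1 (0.0396) and Mirg (0.0351) passed in limma, and along the sagittal series Malat1 (0.0065) and Neat1 (0.0362) passed. Without sagittal fraction 6 none of these sagittal calls held, as 0 of the 39621 probes passed, and without horizontal fraction 1 only 9 of them passed the horizontal test.

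Whether the balance of the strands itself changed was tested on F minus R within an array, which removes the scaling of the array but not the spike-in feature: F minus R had an r with a107 below -0.5 in 80 members and above 0.5 in 71. The fit held 845 intervals with a probe detected in each series on each strand. Along the coronal series 3 of the 304 members passed, against 0.710% of all intervals tested, or 6 in number. The 3 depended on the arrays and the model: the number was 1 with a107 as a covariate, 0 with slide as a block, 0 without coronal fraction 4, 5, 6 or 7, horizontal fraction 4 or sagittal fraction 4, 11 without coronal fraction 8, and 2 without several others. At an unadjusted p under 0.05 there were 80 members (26.3%), and 93 of the other 541 intervals (17.2%). That number of members was 28 with slide as a block, and 51 and 52 without coronal fractions 6 and 2. In every series the other intervals are an unlike set, since they did not have to be detected everywhere on both strands. The residual SD of F minus R had a median of 0.53 in members and 0.79 over all intervals tested. Along the horizontal and sagittal series 0 members passed in limma, against 0% of the intervals tested, and 65 (21.4%) and 56 (18.4%) had an unadjusted p under 0.05, against 25.1% and 16.1% of the other intervals. With a107 in the model 21 horizontal members were left, and there were 34 without horizontal fraction 2 and 36 without horizontal fraction 5, while 8 sagittal members were left without sagittal fraction 6. Normexp background correction gave 7 sagittal members. When only probes detected on all arrays entered, 13 coronal and 16 sagittal members passed, but there the adjustment ran over the 304 members alone, so these are not comparable with the numbers above.

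The first of the 3 was chr4:124127144-124334840. Its R probe A_30_P01019540 was at -2.55 and -3.55 in coronal fractions 1 and 2, climbed to 0.35 in fraction 5, stayed between 0.31 and 0.54 in fractions 5 to 9, and was at -1.07 in fraction 10. Its F probe A_30_P01029459 ran from -3.71 to -2.18 (median -3.10) in the same fractions. The R probe was therefore far above the F probe from fraction 4 on, close to it in fraction 1 and below it in fraction 2. F minus R had a linear change of -3.55 ± 0.77 (SE). The adjusted p for both terms was 0.0269 in limma, and over 31 alternatives, of which 23 kept the call, it ran from 0.000267 to 0.0896. The R probe alone passed (adjusted p 0.000683 in limma) and the F probe did not (adjusted p 0.22 in limma). Both detected R probes gave the same profile (r = 0.99).

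Among all genes, the R probe was most like Pou3f1 (r = 0.99), a POU-domain transcription factor of cortical neurons and myelinating glia, which RefSeq also places on chromosome 4. The Pou3f1 probe was lowest in coronal fraction 2, at -0.50, and highest in horizontal fraction 1, at 3.74. The R probe had its extremes in the same fractions, at -3.55 and 1.05. The F probe had an r of -0.20 with Pou3f1.

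In chr8:119732348-119749198 the F probe A_30_P01025839 was at 0.69, 0.68 and 0.80 in coronal fractions 1 to 3, peaked at 2.05 in fraction 5 and returned to 1.06 in fraction 10. The R probe A_30_P01026504 ran from -3.40 to -1.93 and was highest in fraction 9. The change was mostly a curve, with a linear change of 0.15 ± 0.37 (SE; adjusted p 0.0269 for both terms in limma), and over the 31 alternatives, of which 22 kept the call, the adjusted p ran from 0.00333 to 0.257. Each strand alone also passed, with an adjusted p of 0.0029 for F and 0.0286 for R in limma. The F probe, 1 of 9 detected everywhere, was most like Mnt, a MAX-binding transcriptional repressor (r = 0.97), and Bsn, a scaffold protein of the presynapse (r = 0.94).

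In chr5:106982442-107045717 the probes used for the strands crossed. Its R probe A_30_P01018142 was at 2.01 in coronal fraction 1 and 0.29 in fraction 10, and its F probe A_30_P01017587 was at -0.11 and 1.24. The R probe fell by 1.89 (SE 0.29, adjusted p 0.0027 in limma), and the F probe had a linear change of 0.97 (SE 0.50, adjusted p 0.29 in limma). F minus R had a linear change of 2.86 ± 0.51 (SE; adjusted p 0.0355 for both terms in limma). This call was lost in most settings: 14 of 31 alternatives kept it, with the adjusted p between 0.00919 and 0.428, and it was lost in 16 of the 22 fits without 1 array. Over all detected probes of the interval the median r was 0.14 over 4 pairs within a strand and 0.13 over 6 pairs between strands. The median size of the difference was 2.89 within a strand and 1.62 between strands, so the crossing belongs to the probes used.

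**Figure D4:**
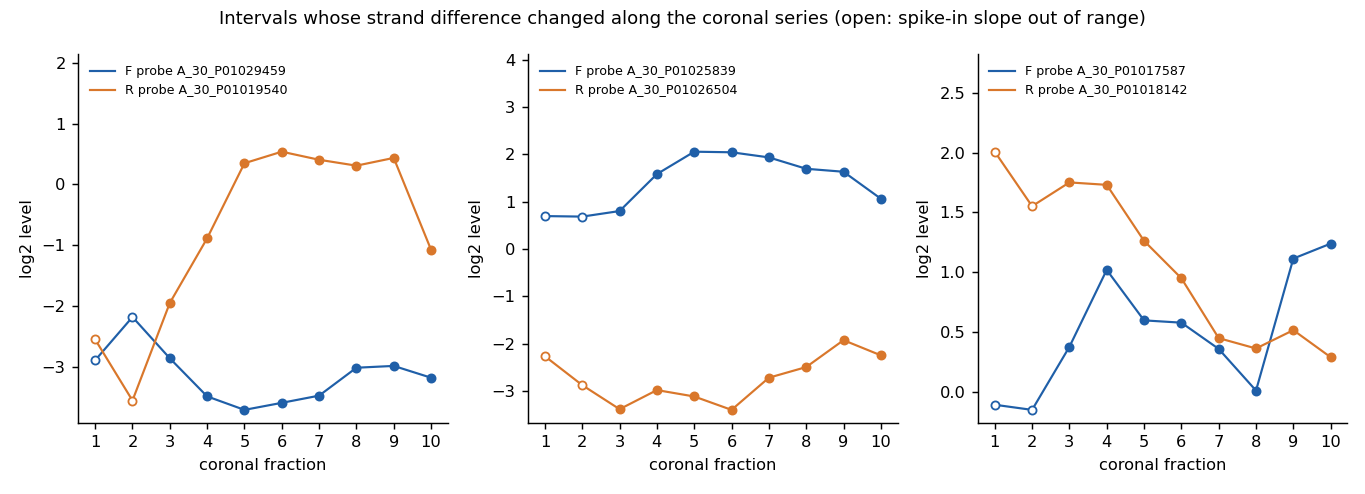
Log2 level (y axis) of the F probe (blue) and R probe (orange) in coronal fractions 1 to 10 (x axis), for chr4:124127144-124334840, chr8:119732348-119749198 and chr5:106982442-107045717 from left to right, with open circles for the 2 arrays whose spike-in slope was out of range. The R probe climbs to 0.54 and the F probe stays below -2 on the left, the F probe peaks at 2.05 in the middle, and the probes used cross on the right.

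The likeness between the chr4 interval and a gene of its own chromosome led to the same question for all members, asked after these values had been seen. For each of the 608 probes the most similar of 13671 genes was found. It lay on the chromosome of the interval for 52 probes (8.55%), while a chromosome held on average 5.31% of the genes. Among the 184 probes with r above 0.95 the number was 19 (10.3%), from 18 members. Some of these moved with the spike-in: a107 had an r of 0.93 with both the F probe of chr1:74084292-74138492 and E330020D12Rik, which had the highest r of all (0.999). It had an r of 0.94 with the R probe of chr4:56013597-56020622 and 0.93 with Pdik1l, and 0.85 with the R probe of chr6:140639450-140662200 and 0.87 with Gm4736. Only chromosomes were compared, because the gene table is of another build (GRCm38), and whether a gene probe and an interval probe bind the same transcript was not tested. In 14 of the 19 the probe used for the opposite strand had an r below 0.5 with the gene, and in 1 it was above 0.85. Over the 15 arrays in range these numbers were 11 and 2. With every detected probe of the opposite strand considered, all were below 0.5 in 11 and some probe was above 0.85 in 2. The first r was picked as the highest over all genes and the second was not, so the gap between them is a description. A low r between strands was also usual, since it was above 0.5 in only 98 of all 304 members (32.2%). For F and R probes of different members this share was 23.4%.

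The genes named next are a selection from those above 0.95 and not the highest in r. Genes left out include Gkn1 (r = 0.976 with the R probe of chr6:90745692-90777977) and Lhb (r = 0.974 with the F probe of chr7:144563845-144603732). Both ranked above Zbtb20 (0.972) and Snx6 (0.968), which are named. Whether the genes as a set have roles in the brain was not tested. The R probe A_30_P01030648 of chr1:42689799-42749799 had an r of 0.998 with Pantr1 and the F probe used had 0.04. This gap rested on the choice of F probe, since the 3 detected F probes ran from 0.04 to 0.97 with Pantr1, while the 3 R probes ran from 0.97 to 0.998. The R probe ran from 4.12 to 7.46 over the fractions and the F probe used from -0.605 to 1.103, and both Pantr1 and the R probe were highest in horizontal fraction 1. The R probe A_30_P01028538 of chr19:5771425-5848475 had an r of 0.99 with Malat1, a nuclear lncRNA found in most cells, and the F probe used had 0.36, with 0.07 to 0.78 over 5 detected F probes. Malat1 and the probes used for both strands were highest in sagittal fraction 6, at 1.04, 1.16 and 1.89. On this array the F probe was therefore less far above the R probe (medians of 1.28 and -1.58 over 22 fractions).

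The F probe A_30_P01024492 of chr16:43623581-43642715 had an r of 0.97 with Zbtb20, a zinc finger repressor of hippocampus and glia, and the R probe had 0.62. The 9 detected F probes ran from 0.91 to 0.97 with Zbtb20. The F probe and Zbtb20 were both highest in coronal fraction 6, at 3.55 and 2.88. The F probe A_30_P01025573 of chr8:40100925-40196350 had an r of 0.98 with Tusc3, a subunit of the oligosaccharyltransferase, and the R probe used had 0.07, but 0.65 over the 15 arrays in range. This R probe had an r of 0.77 with a107, and the 3 detected R probes ran from 0.05 to 0.79 with Tusc3. The 4 detected F probes ran from 0.31 to 0.98 with Tusc3, so this gap too rested on the choice of probes. Other pairs were Mrpl33 of the mitochondrial ribosome (chr5:31856417-31916414, r = 0.99 with F, and an r of 0.85 between the R probe and a107), Snx6 of the retromer (chr12:55844075-55898175, r = 0.97 with R, and 0.80 with F) and Anxa11, an annexin (chr14:26834450-26847000, r = 0.97 with F, and an r with a107 of -0.69 for F and -0.65 for Anxa11). Bud31 with chr5:23349978-23402028 had an opposite strand above 0.85 as well, at 0.96, and over the 15 arrays in range the F probe of the Snx6 interval did too, at 0.86. Other detected probes of the matching strand followed the gene less. The 2 F probes had an r of -0.37 and 0.99 with Mrpl33. The 5 R probes ran from 0.46 to 0.97 with Snx6, and the 3 F probes from 0.30 to 0.97 with Anxa11.

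**Figure D5:**
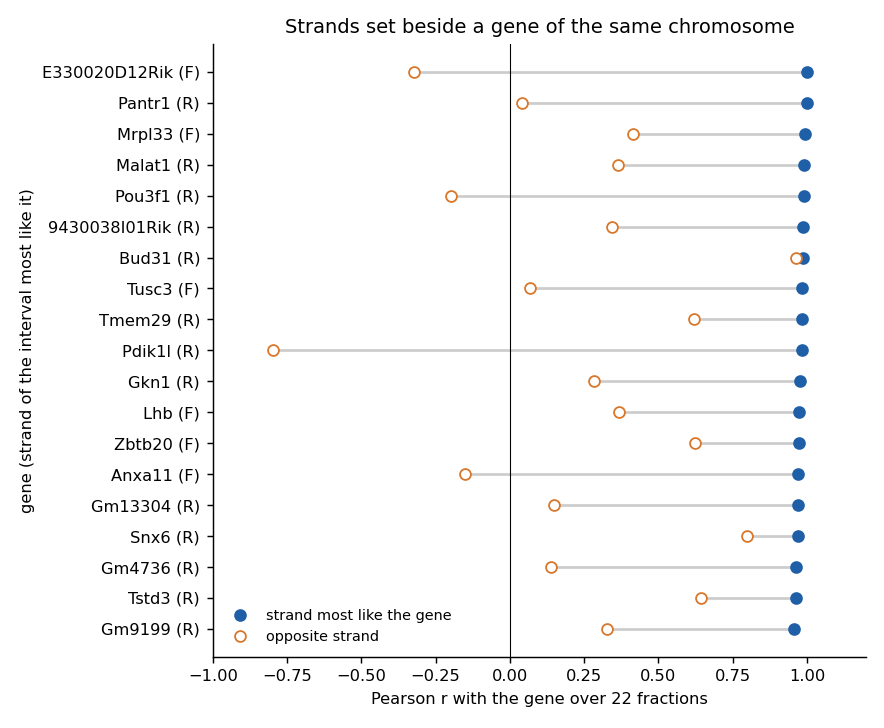
For 19 strands of 18 intervals whose most similar gene (r above 0.95) lies on the same chromosome, the x axis is Pearson's r with that gene over 22 fractions and each row on the y axis is a gene, with the strand most like it in parentheses (filled blue, most-like strand; open orange, opposite strand). The probe used for the opposite strand lies below 0.5 in 14 rows and above 0.85 for Bud31.

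The 7 pairs of members that begin at the same base show how far the choice of probe decides such values. In the pair of chr14:78214602-78225827 and chr14:78214602-78226287 the correlation of the strands was -0.64 in one and 0.48 in the other. Their F probes had an r of 0.44 with each other and their R probes -0.35. In chr7:134369091-134376366 and chr7:134369091-134376468 it was 0.53 and -0.26. Over the 7 pairs the r between F probes ran from -0.22 to 0.78 and that between R probes from -0.35 to 0.91.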

How the data were processed

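The authors deposited Agilent Feature Extraction files (version 10.10.1.1, build mm9) with 1 background-subtracted processed intensity per spot, and a value table on the log2 scale, of which 99.9% of values lay within 0.02 of the levels used here. Levels were the log2 of this intensity less that array's 75th percentile, without outlier spots. Detection was the software's flag for well above background. Array number and signal over background limit the precision. limma 3.58.1 (R 4.3.3) fitted an intercept, linear and quadratic slab position per series over 22 arrays (9 coefficients, 13 residual degrees of freedom), and was tested on simulated data. Slab position was first centred on the mid-range of each series, which gave 219 sagittal member probes; the orthogonal form used here, chosen after those counts were seen because it matches an earlier processing of these data, gave 226. Normexp used median signals, since the files hold no mean signal. Members and lists were chosen with earlier results of these data known. Named were the 4 members highest and lowest in r and in F minus R, the 4 with the widest range, and those with a called strand difference. The same-chromosome comparison was added after its first example was seen, and the comparisons over all detected probes after the other values were seen. Probe sequences were not used here, so none is printed. Summaries and figures used Python 3.11.15, pandas 2.3.3 and matplotlib 3.10.9. Calls used Benjamini-Hochberg adjusted p under 0.05. Alternatives were scaling, background correction, the authors' table, a107, slide, filters, and each fraction left out.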

Additional observations from a re-analysis of the deposited data

Results flagged for a closer look

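In 126 sets of values (21 named members, 2 strands, 3 series), 10 had a highest or lowest fraction far from the rest by Dixon's criterion, which marks about 1 set in 20 by chance. Coronal fraction 2, an array with the spike-in slope out of range and alone on its slide, gave 4 low values. They were 4.43 for the F probe of chr15:85412264-85549139 (next value 5.98), -0.32 for the R probe of chr17:88225376-88238756 (next 1.17), 5.49 for the F probe of chr6:83368261-83407280 (next 6.76) and 5.06 for the F probe of chrX:18744367-18853992 (next 6.85). Sagittal fraction 6, which pools slabs 7 to 9, gave 5. They were 6.96 for the R probe of chr16:29942664-29948289 (next 5.49), -2.27 for the F probe of chr2:168804720-168854970 (next -3.21), -2.21 for the F probe of chr4:124127144-124334840 (next -2.82), -1.04 for the F probe of chr5:26323150-26357875 (next -1.98) and -0.11 for the F probe of chr8:119732348-119749198 (next 1.09). Horizontal fraction 6 gave 2.09 for the R probe of chr5:106982442-107045717 (next 1.45).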

How the results depend on the processing

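No paired analysis was possible because fraction numbers mark different slabs of different mice. After centring every array on its median, the member probes called were 120 coronal, 28 horizontal and 114 sagittal. With slide as a block they were 30 coronal and 183 horizontal, and with a107 as a covariate 1 horizontal and 131 sagittal. Quantile normalization gave 133 sagittal. Testing only probes detected on all 22 arrays gave 344 coronal and 192 horizontal, and testing all probes gave 38 horizontal. The other settings stayed within 1.5 times the number reported, including slab position centred on the mid-range, which was added after seeing the data. Without 1 fraction the ranges were 128 to 347 coronal, 0 to 211 horizontal and 0 to 269 sagittal. Strand differences called in members were, coronal, 1 with a107, 0 with slide as a block and 13 among probes detected everywhere. Horizontal, they were 2 with normexp and 1 with slide as a block. Sagittal, they were 7 with normexp, 1 with quantile normalization and 16 among probes detected everywhere, where the adjustment covered the members alone. Without 1 fraction they ran from 0 to 11 coronal, 0 to 3 horizontal and 0 to 2 sagittal. The median r of the strands was 0.282 with normexp, 0.304 with centring, 0.320 with quantile normalization, 0.286 with a107 regressed out, 0.322 with the mean of all detected probes per strand, 0.375 on the 15 arrays in range and 0.335 within the sagittal series, and 0.233 to 0.281 without 1 fraction. The median of F minus R was -0.118 with normexp, -0.0753 with the mean of all detected probes per strand and -0.229 on the 15 arrays, and -0.227 to -0.162 without 1 fraction. The causes were not tested. Signals near background limit the dim strands, and fractions without replicates limit every test.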
